A study of Mus musculus with 8 samples.

Results

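The mitochondrial ATP synthase, or complex V, is the rotary enzyme of the inner mitochondrial membrane that makes ATP from the proton gradient built by the respiratory chain. Protons that cross the membrane turn a ring of c subunits and a central stalk, and the turning stalk drives ATP synthesis in the F1 head, while a peripheral stalk holds the head still. Neurons depend on it heavily, since synaptic transmission and the pumping of ions consume much of the ATP of the brain. The 4 genes described are Atp5k (subunit e of the membrane part), Atp5f1 (subunit b of the peripheral stalk), Atp5g1 (a gene for subunit c of the ring) and Atp5a1 (subunit alpha of the F1 head). They were identified among the 2372 genes of the authors' deposited table through their positions and strands in GENCODE M21 (GRCm38), and all 4 matched. They had been picked with the outcome of the deposited comparison in view, so its fold changes and p-values describe them here and do not test them.

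The tissue was medial prefrontal cortex (mPFC), taken for RNA sequencing from 8 adult male mice on a C57Bl/6J background. In 4 of them, called CaKO (CamK2A-Cre;Gpr158flox/flox), a Cre recombinase under the CamK2A promoter deletes the orphan receptor gene Gpr158 in excitatory forebrain neurons. The other 4, the controls, were littermates with the same floxed alleles (Gpr158flox/flox) and no Cre, and all 8 mice were labelled naive. The tissue is a mixture of cell types, so Cre-expressing neurons are one part of each CaKO sample. The values used are normalised counts of the 4 CaKO libraries, which are read counts divided by 1 factor per library, and the authors' log2 fold changes (CaKO over control) with their p-values. Values of the individual control libraries were not analysed here.

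The genes of the table held 2832931 to 3183638 reads per CaKO library, and 1 read was worth 0.9941 to 1.0420 normalised counts. Pyramidal neuron markers were abundant in the tissue, with Camk2a at 46287 ± 5735 and Nrgn at 12792 ± 2552 normalised counts (SD, n = 4 CaKO). None of the matched rows was Gpr158, so the deletion was not checked against its own transcript. All deposited rows have an unadjusted p below 0.05, and 17 of them matched no gene. A lower level of the Gpr158 transcript in CaKO was thus not seen among the matched rows. CaKO replicate 3 was the lowest or the highest of the 4 libraries for 62.2% of the 1984 genes with a CaKO mean of at least 50, against 44.6%, 35.7% and 57.5% for replicates 1, 2 and 4. Among the 14 genes of the ATP synthase, its inhibitor and its assembly factors that are in the table, replicate 3 was the lowest or the highest for 12.

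Atp5k was much lower in the CaKO mPFC, Atp5f1 was modestly lower, Atp5g1 was slightly higher, and Atp5a1 did not pass the threshold, so the 4 subunit genes did not move as a block. Among the 4, 3 (1 higher, 2 lower) had in the authors' deposited table an adjusted p below 0.05, while 3.24% of all 12938 genes in the adjustment did. That share is given as background only, because the members were picked on the same comparison. In bulk tissue, fewer cells of a type and less RNA per cell cannot be told apart.

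Atp5k encodes subunit e, a small membrane protein that in yeast helps ATP synthase form the dimers that line the edges of cristae. The gene lies on chromosome 5 (108433244 to 108434448, minus strand, GRCm38), and its principal transcript has 4 exons and 371 bases. CaKO replicates 1 to 4 had 135.7, 138.3, 36.78 and 80.24 normalised counts of Atp5k. Replicates 1 and 2 were close to each other, and replicate 3 was far below them, 3.76-fold under the highest library. The CaKO mean was 97.74 ± 48.7 normalised counts (SD, n = 4), a coefficient of variation of 49.8%, which ranked 6 among the 1984 genes with a CaKO mean of at least 50. The authors' deposited table gave a log2 fold change of -1.71 with an implied standard error of 0.41 (Benjamini-Hochberg adjusted p = 0.00481), the largest decrease among the 255 genes called lower. Dividing the CaKO mean by the deposited fold change gives an implied control level of 321 normalised counts, above each CaKO library. Without CaKO replicate 3 the recomputed log2 fold change of Atp5k was -1.44 and its coefficient of variation fell to 27.8%. The approximate Wald p was then 0.00125, only just under the limit of 0.00162 reached by called genes. Replicate 3 therefore made up part of both the size of the difference and the spread. The nearest other transcript is the pseudogene Atp5k-ps2, with 95.7% identity over 210 bases.

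Atp5f1 encodes subunit b, the long helix of the peripheral stalk that links the membrane part to the head. It lies on chromosome 3 (105942698 to 105960099, minus strand, GRCm38), and its principal transcript has 8 exons. Its normalised counts in CaKO replicates 1 to 4 were 2480, 2379, 2215 and 2322. The 4 libraries lay within 1.12-fold of each other, among the tightest of the subunit genes. Atp5f1 averaged 2349 ± 111 normalised counts in CaKO (SD, n = 4), against an implied control level of 3147. The authors' deposited table gave a log2 fold change of -0.42 with an implied standard error of 0.09 (Benjamini-Hochberg adjusted p = 0.000371). That difference was larger than the spread from the lowest to the highest CaKO library, which was 0.16 on the log2 scale. The spread of the control libraries was not analysed, and Atp5f1 was picked with this difference known, so the comparison is a description. Leaving out each CaKO library in turn gave log2 fold changes between -0.45 and -0.39. Taking the median log2 fold change of the table (-0.23) as 0 gave -0.19. Its approximate p of 0.0286 then missed the limit of 0.00162 reached by called genes. That median is over genes with a p below 0.05 only, so the shift does not test Atp5f1. Another transcript, Gm12231, has 98.7% identity with Atp5f1 over 696 bases and could share its reads. On the opposite strand, Wdr77 and Gm42890 overlap 8.2% and 4.9% of the exon sequence of Atp5f1.

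Atp5g1 is one of 3 genes for subunit c, which yield the same mature ring protein and differ in the targeting peptide that is cut off on import. It lies on chromosome 11 (96068852 to 96075670, minus strand, GRCm38). CaKO replicates 1 to 4 had 1397, 1380, 1719 and 1569 normalised counts of Atp5g1. Replicates 3 and 4 were above replicates 1 and 2, the opposite order to that of Atp5k. The CaKO mean was 1516 ± 160 normalised counts (SD, n = 4), against an implied control level of 1166, which is below each CaKO library. The authors' deposited table gave a log2 fold change of 0.38 with an implied standard error of 0.10 (Benjamini-Hochberg adjusted p = 0.017), close to the CaKO range of 0.32 on the log2 scale. Without CaKO replicate 3 it was 0.31, with an approximate p of 0.00528 that no longer met that limit. Gm10039, a separate annotated gene on chromosome 11 (100361716 to 100362126), has 99.8% identity with Atp5g1 over 411 bases and is itself in the table. It had 363.8, 377.7, 438.4 and 368.9 normalised counts in CaKO replicates 1 to 4, and its log2 fold change was 0.40 as the authors' deposited table lists it (Benjamini-Hochberg adjusted p = 0.019). Both genes were higher in CaKO, and at this identity reads of one can be counted for the other.

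Atp5a1 encodes subunit alpha, which alternates with the catalytic beta subunit in the F1 head. It lies on chromosome 18 (77773729 to 77782869, plus strand, GRCm38), and its principal transcript has 12 exons. Its normalised counts in CaKO replicates 1 to 4 were 12030, 12472, 13227 and 11882. It was by far the most abundant of the 4 genes, and the libraries stayed within 1.11-fold of each other. Atp5a1 averaged 12403 ± 604 normalised counts in CaKO (SD, n = 4), against an implied control level of 11131. The authors' deposited table gave a log2 fold change of 0.16 with an implied standard error of 0.07, and the Benjamini-Hochberg adjusted p of 0.203 did not pass the threshold. Its fold change was about as large as the CaKO range of 0.15 on the log2 scale. With the median log2 fold change of the table taken as 0, Atp5a1 was at 0.39 and met the limit of called genes. The genes behind that median all have a p below 0.05, so this is no call of the authors' test. On the opposite strand, Haus1 overlaps 4.1% of the exon sequence of Atp5a1.

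**Figure D1:**
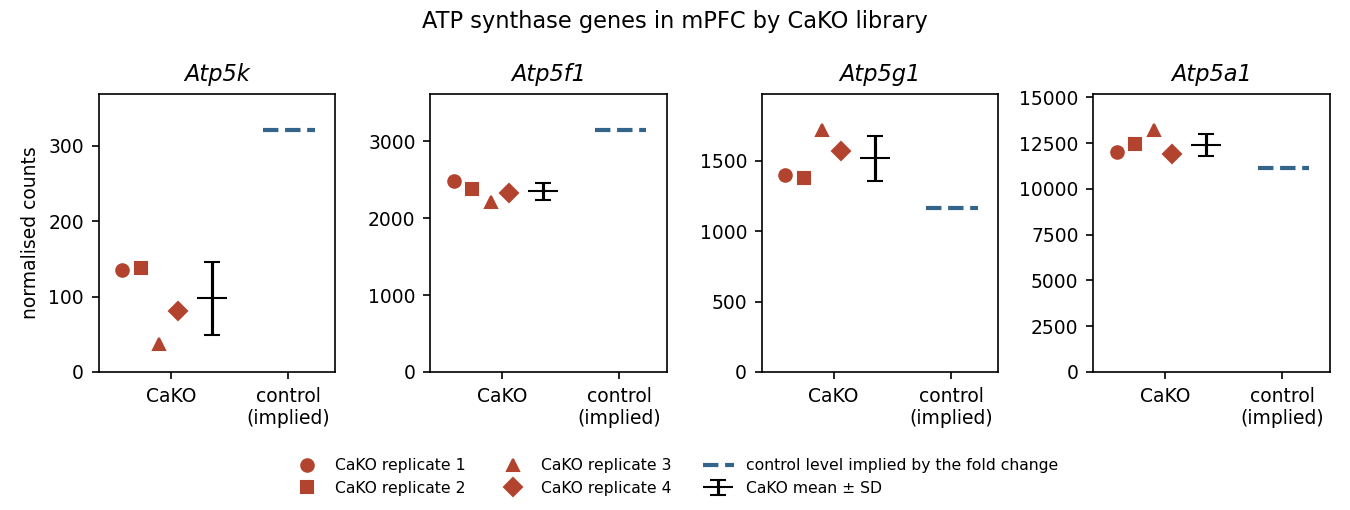
Normalised counts (linear axes starting at 0) of the 4 genes in each CaKO library, with the CaKO mean ± SD (n = 4) and, as a dashed line, the control level implied by the authors' fold change, which has no spread of its own. The implied control level lies above every CaKO library for Atp5k and Atp5f1 and below every CaKO library for Atp5g1 and Atp5a1.

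Levels can be set side by side between genes only per length. Per kilobase of the exon length in the table, Atp5a1 had 3960, Atp5f1 572, Atp5g1 309 and Atp5k 159 normalised counts on average in CaKO. The CaKO libraries ranged from 3790 to 4220 for Atp5a1, from 540 to 604 for Atp5f1, from 281 to 350 for Atp5g1 and from 59.7 to 224 for Atp5k, so no neighbours in this order overlapped. The order of the middle genes rests on the length used. Atp5g1 has 4912 bases of annotated exons but a shortest principal transcript of 596 bases, and per kilobase of that transcript it had 2540 normalised counts, above Atp5f1 at 1460. Atp5a1 was the highest and Atp5k the lowest of the 11 nuclear subunit genes in the table on both lengths.

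The promoters of Atp5k, Atp5f1 and Atp5g1 are shown because these are the members that were called, in different directions. The table of RefSeq promoters used (GRCm38.p6) matched 15 of the 17 nuclear subunit genes. Each sequence below is the 250 bases before the RefSeq start of the gene, in lower case, with capitals for letters of a searched motif. RefSeq starts differ from the GENCODE gene ends given above: the Atp5f1 window lies wholly inside the GENCODE span of the gene, and those of Atp5k and Atp5g1 overlap theirs.
Atp5k, chr5:108434400-108434649, minus strand: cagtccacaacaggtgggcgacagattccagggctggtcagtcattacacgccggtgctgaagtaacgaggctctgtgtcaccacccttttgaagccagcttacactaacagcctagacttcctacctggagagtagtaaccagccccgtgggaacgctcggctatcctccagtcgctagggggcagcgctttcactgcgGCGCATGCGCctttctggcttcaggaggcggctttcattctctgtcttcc
Atp5f1, chr3:105959264-105959513, minus strand: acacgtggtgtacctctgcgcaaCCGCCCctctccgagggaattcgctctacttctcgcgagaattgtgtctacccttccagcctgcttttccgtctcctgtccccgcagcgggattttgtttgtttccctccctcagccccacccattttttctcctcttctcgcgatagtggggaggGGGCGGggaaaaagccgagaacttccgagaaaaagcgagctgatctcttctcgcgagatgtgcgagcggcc
Atp5g1, chr11:96075632-96075881, minus strand: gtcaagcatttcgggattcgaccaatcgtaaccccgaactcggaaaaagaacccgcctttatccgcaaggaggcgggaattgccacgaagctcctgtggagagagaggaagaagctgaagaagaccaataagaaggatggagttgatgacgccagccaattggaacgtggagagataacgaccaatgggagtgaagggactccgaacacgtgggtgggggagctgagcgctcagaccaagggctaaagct
The motifs searched on both strands were GCGCATGC (the core of the site of NRF1, a regulator of nuclear genes for mitochondria), CCGGAAG (GABP and other ETS factors), GGGCGG (SP1), AANATGGC (YY1) and TGACGTCA (the cyclic AMP response element). The Atp5k promoter held the NRF1 letters on both strands of a single palindromic stretch that begins 50 bases before the start, and no other match. The Atp5f1 promoter held 2 SP1 matches, beginning 227 and 71 bases before the start, and the Atp5g1 window held none of these letters. No match of one motif overlapped a match of another. NRF1 letters were found in 3 of the 15 subunit promoters (Atp5k, Atp5g2 and Atp5l) and in 2.32% of 27025 promoters of the same length. ETS letters were found in 3 of 15 (Atp5e, Atp5h and Atp5l), against 7.05% of all promoters. SP1 letters were in 33.3% of the subunit promoters and 32.9% of all. Of the genes with NRF1 letters, Atp5k was called lower in the authors' deposited table and Atp5g2, at a log2 fold change of -0.27, did not pass (Benjamini-Hochberg adjusted p = 0.22). Atp5l is not in the table. YY1 and cyclic AMP response element letters were in 0 of the 15, against 3.93% and 1.62% of all promoters. G and C made up 57.6% of the bases in the Atp5k and Atp5f1 windows and 53.6% in that of Atp5g1. The median was 57.6% over the 15 subunit promoters (44.0% to 74.8%) and 52.0% over all promoters.

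Across the whole complex the calls went in both directions. Of 19 subunit genes on the list, 17 of them nuclear, 12 are in the table and 4 passed an adjusted p of 0.05, per the authors' deposited table, with 1 higher and 3 lower. That is 21.1% of the list, against 3.24% of all genes, and the members, which make up 3 of the 4 calls, were picked on this comparison. The called genes are 3 of the members and Atp5o. The background was 1.27% of the 12938 genes called higher and 1.97% called lower. At an unadjusted p below 0.05, 4 nuclear subunit genes were higher and 7 lower, while 15.8% of the 12938 genes were past that threshold, 7.14% higher and 8.68% lower. The median of the deposited log2 values, from the authors' deposited table, was -0.27 for these 11 genes and -0.22 for all 2047 past the threshold. Without the members, 1 of the 13 other nuclear subunit genes was called. The other 6 nuclear subunit genes (Atp5b, Atp5c1, Atp5j, Atp5l, Usmg5 and Atp5mpl) have no row in the table, and their values were not analysed here.

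In the F1 head, Atp5d and Atp5e, the delta and epsilon subunits of the central stalk, sat opposite to Atp5a1. Atp5d had 1903, 1872, 1379 and 2080 normalised counts in CaKO replicates 1 to 4, and Atp5e had 846.3, 713.4, 606.4 and 707.5. Both were lowest in replicate 3. The authors' deposited table lists each at a log2 fold change of -0.27, and neither passed (Benjamini-Hochberg adjusted p = 0.263 for Atp5d and 0.272 for Atp5e).

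In the peripheral stalk, Atp5o, which encodes the subunit that ties the stalk to the head (OSCP), fell, as did Atp5f1. CaKO replicates 1 to 4 had 424.1, 386.7, 409.6 and 587.7 normalised counts of Atp5o, a mean of 452.0 ± 91.7 (SD, n = 4). The authors' deposited table gave it a log2 fold change of -0.61 (Benjamini-Hochberg adjusted p = 0.0291). Replicate 4 stood above the others, and the approximate p of Atp5o missed the limit without replicate 1, 2 or 3, at log2 fold changes of -0.58, -0.54 and -0.56. It also missed it, at -0.37, when the median log2 fold change of the table was taken as 0. All genes behind that median have a p below 0.05. Overlapping annotation could affect Atp5o. Another gene of the same symbol shares 12.3% of its exonic bases and its strand, and a pair of antisense genes covers 18.1% and 17.5%. A transcript of Donson has 100.0% identity with Atp5o over 287 bases and could share its reads. Atp5h, subunit d of the same stalk, had 1411, 1625, 1894 and 1751 normalised counts and, per the authors' deposited table, a log2 fold change of 0.29, which did not pass (Benjamini-Hochberg adjusted p = 0.149). A near-identical copy of Atp5h, Gm10250, could share its reads.

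In the membrane part, Atp5j2 (subunit f) differed in direction from Atp5k. It had 1016, 1117, 1600 and 1184 normalised counts in CaKO replicates 1 to 4, highest in replicate 3, where Atp5k was lowest. Atp5j2 was at 0.36 on the log2 scale per the authors' deposited table and did not pass (Benjamini-Hochberg adjusted p = 0.129). The mitochondrially encoded mt-Atp8 averaged 44.63 ± 8.59 normalised counts (SD, n = 4), and the authors' deposited table lists it at a log2 fold change of 1.08 with an adjusted p of 1, which leaves it outside the adjustment. The gene for the inhibitor of ATP hydrolysis, Atpif1, was at -0.31 (Benjamini-Hochberg adjusted p = 0.277) and the assembly factor gene Tmem70 at 0.26 (0.308), on the log2 scale and as the authors' deposited table lists them. Neither passed, and Gm12999 covers 33.7% of the exon sequence of Atpif1 on the opposite strand.

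**Figure D2:**
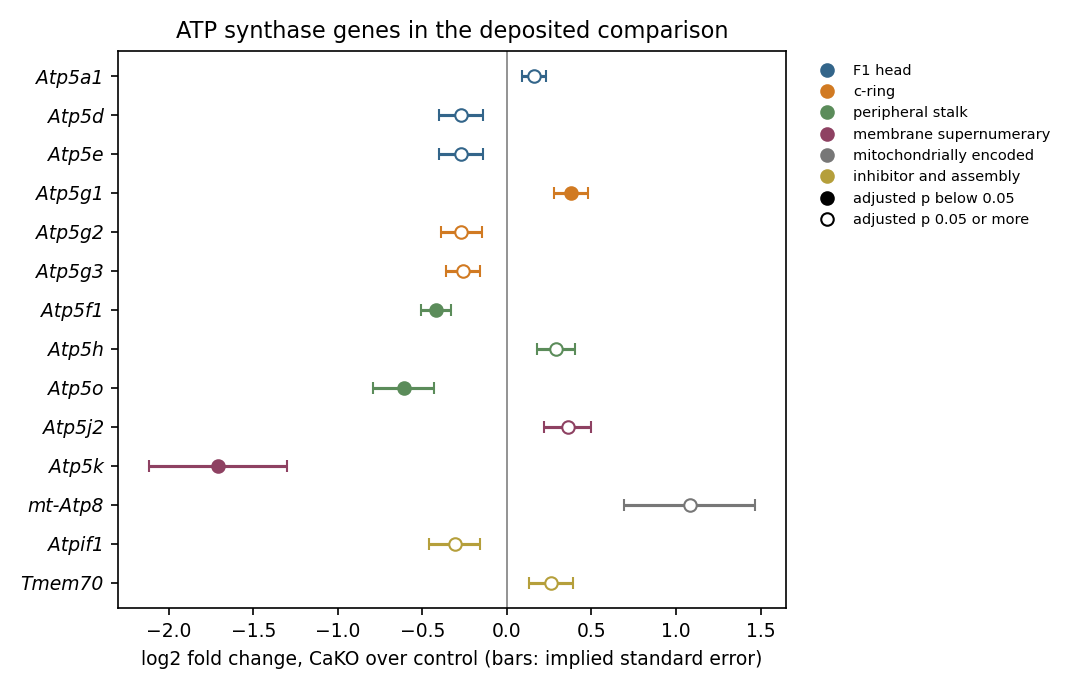
Log2 fold changes (CaKO over control) of the 14 ATP synthase genes in the authors' deposited table, by role, with bars for the standard error implied by the deposited p. Filled points have an adjusted p below 0.05, mt-Atp8 has an adjusted p listed as 1, and Atp5k at -1.71 lies far below all others.

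Of the 3 c-ring genes only Atp5g1 passed the authors' test, and the other two were listed at negative fold changes. Atp5g2 had 546.8, 578.1, 447.4 and 636.7 normalised counts in CaKO replicates 1 to 4, and Atp5g3 had 2210, 2138, 1907 and 1768. The authors' deposited table lists log2 fold changes of -0.27 for Atp5g2 and -0.26 for Atp5g3, and neither passed (Benjamini-Hochberg adjusted p = 0.22 and 0.116). The sum of Atp5g1, Atp5g2 and Atp5g3 was 4074 ± 75 normalised counts in CaKO (SD, n = 4), against an implied control sum of 4238, a log2 ratio of -0.06. Atp5g1 made up 37.2% ± 4.29 of that sum in CaKO (SD, n = 4) and 27.5% of the implied control sum. Atp5g3 made up 49.2% ± 4.2 in CaKO and 56.8% in the implied control, and Atp5g2 13.6% ± 2.09 in CaKO and 15.7% in the implied control. By library, the share of Atp5g1 was 33.6%, 33.7%, 42.2% and 39.5% in CaKO replicates 1 to 4, each above the implied control share. The implied control share follows from the deposited fold changes, on which Atp5g1 was picked, so this is a description. All these shares are of read counts and not of transcripts, because the genes differ in length. No test of them was possible without control values. Atp5g2 has 2 copies at 100.0% identity, Gm10175 and Gm10231, that could share its reads.

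**Figure D3:**
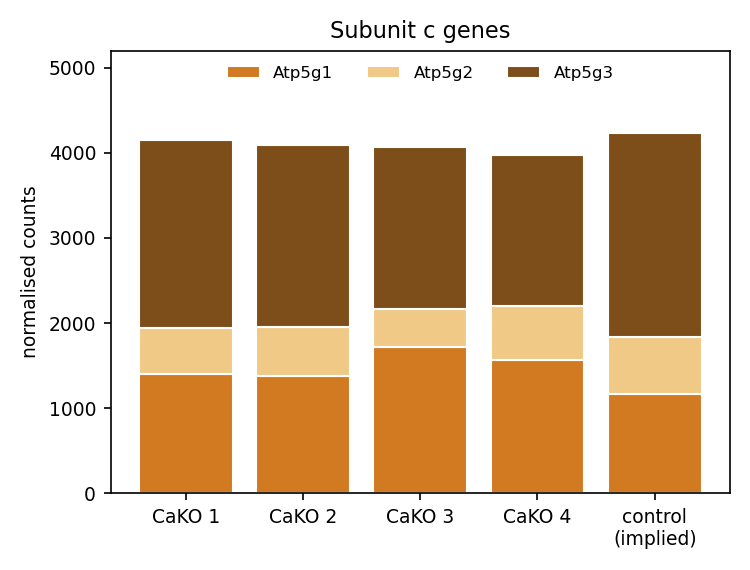
Stacked normalised counts of the 3 subunit c genes in each CaKO library and, at the right, in the control as implied by the authors' fold changes (1 derived value, no error). The sums are near 4074 in CaKO and 4238 in the implied control, while the Atp5g1 part is larger in each CaKO library.

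Within the CaKO group the subunit genes varied in different ways. The 11 nuclear subunit genes summed to 24400, 24799, 25439 and 24568 normalised counts in replicates 1 to 4, a coefficient of variation of 1.84%, and Atp5a1 made up much of that sum. Below this steady sum, Atp5k, Atp5d, Atp5e, Atp5g2 and Atpif1 were lowest in replicate 3, as was Atp5f1. Atp5a1, Atp5g1, Atp5h, Atp5j2, mt-Atp8 and Tmem70 were highest there. In this library, 6 genes were thus the lowest and 6 the highest of the group. Of these 12, the 6 lowest all had negative log2 fold changes (from the authors' deposited table) and the 6 highest all had positive ones. The values of replicate 3 enter those fold changes, so this is a description. The 10 mitochondrial genome transcripts in the table summed to 728355, 610528, 435636 and 518873 normalised counts, lowest in replicate 3 like Atp5k, and the 5 pyramidal markers in the table to 68647, 68300, 52093 and 72215. Their part in the values of Atp5k was not tested.

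**Figure D4:**
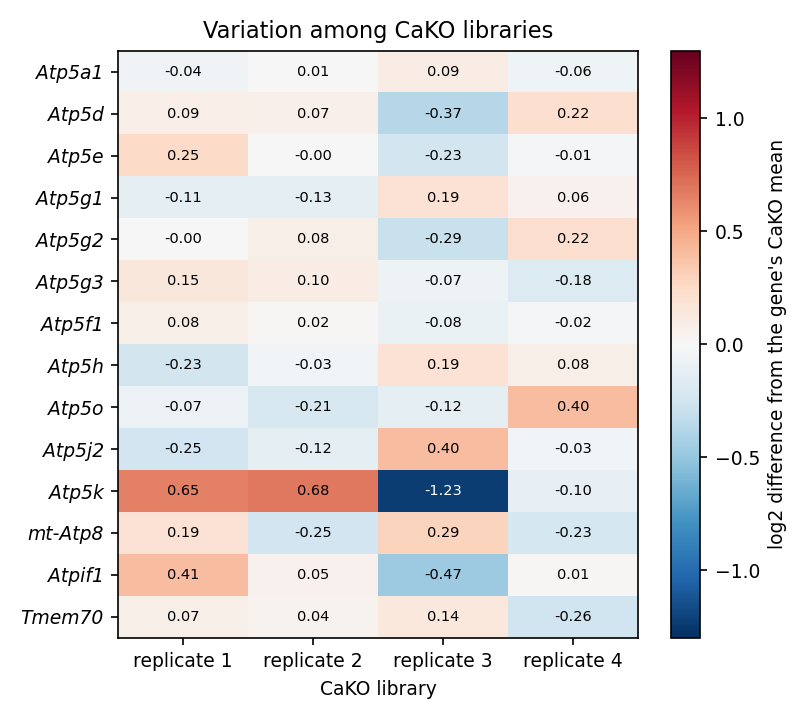
Log2 difference of each CaKO library from the mean of the gene's log2 values over the 4 CaKO libraries, for the 14 ATP synthase genes in the table. Replicate 3 holds the lowest or the highest value for 12 of them, with Atp5k the most extreme.

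The genes whose profile over the 4 CaKO libraries was nearest to each member were found by the root mean square difference of centred log2 values. For Atp5k they were mt-Tn (0.153), a mitochondrial asparagine tRNA, Pcp4 (0.343), a calmodulin-binding peptide, and Kmt5c (0.345), a histone methyltransferase. The values of mt-Tn were 241.2, 251.5, 84.5 and 144.8 normalised counts, with replicate 3 lowest and replicate 4 next, as for Atp5k. Those of Pcp4 were 397, 294.6, 146.1 and 190.7. Near Atp5f1 were Cnn3 (0.011), BC031181 (0.013) and Cdk13 (0.013), and near Atp5a1 were Ndfip1 (0.006), Gpkow (0.010) and Znhit3 (0.011). The nearest to Atp5g1 were Rtca (0.011), Uqcrc2 (0.017), a core subunit of complex III, and Tro (0.023). With 4 libraries many genes lie this close to a flat profile, so nearness says little for Atp5f1 and Atp5a1. Atp5g1, whose coefficient of variation ranked 1116 among 1984 genes, had its nearest gene at the same distance as Atp5f1 (0.011). Nearness says little for Atp5g1 either.

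Nuclear genes of the respiratory chain were mixed in direction as well. Of 62 genes of complexes I to IV, 13 had an adjusted p below 0.05 in the authors' deposited table (4 higher, 9 lower). Over all 12938 genes the share was 3.24%, with 1.27% higher and 1.97% lower. Of the 17 nuclear ATP synthase genes 4 passed, but 3 of these were members picked on this comparison. Without the members, 1 of the 13 other nuclear ATP synthase genes passed. Complex I, the proton pump that takes electrons from NADH, held 11 of the 13 calls in complexes I to IV, 4 higher and 7 lower. The smallest p-values were those of Ndufa13 at 0.59 (Benjamini-Hochberg adjusted p = 0.00117) and Ndufb9 at 0.57 (0.00197) on the log2 scale, per the authors' deposited table. In complex III, Uqcrb fell by 0.52 in the authors' deposited table (Benjamini-Hochberg adjusted p = 0.0406) and Uqcrc1, at 0.26, did not pass (0.0718). In complex IV, Cox6b1 fell by 0.52 in the authors' deposited table (Benjamini-Hochberg adjusted p = 0.0292) and Ndufa4, at -0.28, did not pass (0.106). The only complex II gene of 4 in the table, Sdhb, was at 0.19 and did not pass (Benjamini-Hochberg adjusted p = 0.181 in the authors' deposited table).

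Partners of the ATP synthase in shaping cristae and exporting ATP gave 1 call. Over all 12938 genes, 3.24% were called and 15.8% had an unadjusted p below 0.05. Of 8 cristae genes, Minos1, a core part of the complex at crista junctions, rose by 0.37 on the log2 scale, per the authors' deposited table (Benjamini-Hochberg adjusted p = 0.0411). Of 8 genes for ATP export and phosphate import, 4 are in the table, all higher and none called, with the channel genes Vdac3 at 0.30 and Vdac1 at 0.21 in the authors' deposited table (Benjamini-Hochberg adjusted p = 0.0693 and 0.128). The V-ATPase is the related proton pump that acidifies synaptic vesicles. It had 4 of 17 genes in the table and 0 calls in the authors' test (4 at an unadjusted p below 0.05). Its genes Atp6v1a and Atp6v1d were at 0.27 and -0.21 in the authors' deposited table (Benjamini-Hochberg adjusted p = 0.0981 and 0.212).

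**Figure D5:**
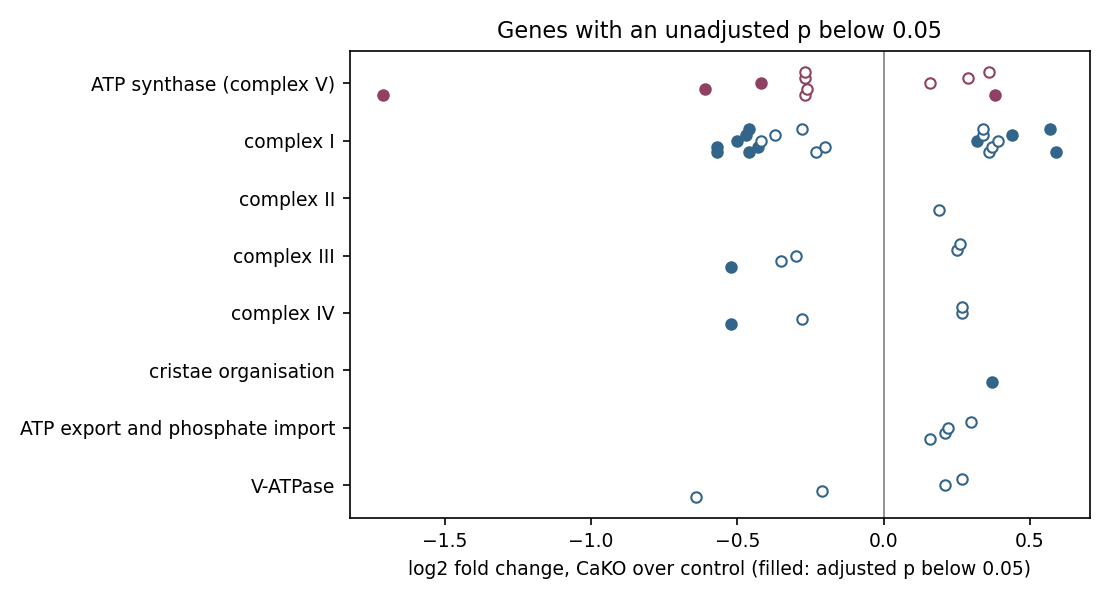
Log2 fold changes (CaKO over control) in the authors' deposited table for genes with an unadjusted p below 0.05, by complex or process. Filled points have an adjusted p below 0.05, vertical offsets only separate the points, and each respiratory complex with more than 1 gene has points on both sides of 0.

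Cell type markers in the same table moved too. All 7 oligodendrocyte markers are in it and were lower (log2 fold changes from -0.73 to -0.32, 4 called), as were 5 of 8 pyramidal markers (from -0.50 to -0.20, 2 called) and 3 of 7 astrocyte markers (from -0.49 to -0.25, 2 called) in the authors' deposited table. Of 4 endothelial markers 2 are in the table, with Ly6c1 called lower at -0.39 and Flt1 at -0.19, which did not pass (Benjamini-Hochberg adjusted p = 0.00481 and 0.208 in the authors' deposited table). Over all 12938 genes, 1.97% were called lower. The summed oligodendrocyte markers ranged from 35491 to 43248 normalised counts over the CaKO libraries and the astrocyte markers from 9798 to 12287. Of 6 interneuron markers 0 are in the table, and of 6 microglial markers 1 is (Trem2). Trem2 was at 0.32 in the authors' deposited table and did not pass (Benjamini-Hochberg adjusted p = 0.302). The part of cell composition in the ATP synthase values was not tested.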

How the data were processed

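Poly-A RNA libraries from mPFC, 1 per mouse, were read as 100 bp paired ends, per the labels' protocols. TopHat2 2.0.12, HTSeq 0.6.1 and DESeq2 1.30.1 and the build GRCm38 (mm10) are named in the submitters' processing notes. Treatment of strand and of multiply aligned reads: not given in the sources used here. Library values are signal, made by the authors through division of counts by 1 factor per library: 100.0% were whole multiples of a step, within 0.01 of a read. The log2 fold changes (CaKO over control) and the p-values and adjusted p-values are the authors', as deposited. All deposited p-values are below 0.05, and the adjusted ones follow Benjamini-Hochberg over 12938 genes (largest relative difference 0.005), with 325 genes listed at 1. The direction follows from 18 genes at 0 in every CaKO library, all with negative fold changes.

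From these values, CaKO means and SDs were computed, with the implied control level (CaKO mean divided by the fold change) and the implied standard error, which assumes a Wald test. Calls are the authors' adjusted p below 0.05; no test across samples was run, since control values were not used here, and total depth is unknown. "Rose" and "fell" are used of calls. Leaving out a CaKO library was approximated by recomputing the fold change against the implied control level, with the standard error widened 1.08-fold and calls kept at p up to 0.00162. Of 2372 genes, 2266 matched GENCODE M21 exactly, 89 by at least 80% mutual overlap and 17 not at all. Near-identical copies have at least 98% identity over 200 bases and 50% of either transcript (BLAST 2.17.0). Named genes are the members, every ATP synthase gene in the table, the 3 nearest profiles per member and the 2 smallest p-values per related list; Atp5o, Gm10039, Camk2a, Nrgn and Trem2 serve as context. The members and lists were chosen with earlier results of these data known. Computation used Python 3.11.15.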

Additional observations from a re-analysis of the deposited data

How the results depend on the processing

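Of the 4 members, which were picked on this comparison, 3 were called, against 3.24% of all 12938 genes. With a Bonferroni correction over all genes in the adjustment, 1 member was called (Atp5f1). The shares of all genes with Bonferroni and at an adjusted p below 0.01 are not given here. For the 25 genes of the ATP synthase, its inhibitor and its assembly factors, the 4 calls became 2 at an adjusted p below 0.01, 13 at an unadjusted p below 0.05 (which 15.8% of all genes passed) and 1 with Bonferroni. Leaving out each CaKO replicate in turn gave 2 to 4, lowest without replicate 3. The log2 fold change of Atp5g1 ranged from 0.31 to 0.42 over these omissions and lost its call at 0.31, without replicate 3. Those of Atp5k (-1.93 to -1.44) and Atp5f1 kept their calls. Without replicate 3 the approximate Wald p of Atp5k was 0.00125, only just under the limit of 0.00162. Taking the median log2 fold change of the table (-0.23) as 0 moved Atp5f1 to -0.19, no longer called, and Atp5a1 to 0.39, called, with no direction changed; that median is over genes with a p below 0.05 and not over all genes. The coefficient of variation ranged from 27.8% to 59.8% for Atp5k and from 2.53% to 5.96% for Atp5a1 over omissions. With libraries scaled to the same total over the table it was 1.01% for Atp5f1 and 9.89% for Atp5a1, against 4.72% and 4.87%. Per kilobase of the shortest principal transcript, an alternative chosen after seeing the data, levels were 263, 1460, 5020 and 2540 normalised counts for Atp5k, Atp5f1, Atp5a1 and Atp5g1. No paired analysis was possible, because the labels pair no CaKO mouse with a control mouse and values of the control libraries were not analysed here. The 4 CaKO libraries, 1 per mouse, limit the precision; counting error is part of the spread of Atp5k and mt-Atp8, which rest on few reads.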

Other observations

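Atp5k has 616 bases of annotated exons. Of 132 genes of up to 1000 bases in the authors' deposited table with an unadjusted p below 0.05, 78 were lower and 54 higher, so 59.1% were lower, while 54.9% of all 2047 genes past that threshold were; the difference was not tested. Of the 132 genes, 21 were called higher and 35 lower. Among all 2047 genes past that threshold, 164 were called higher and 255 lower. The part of transcript length in the values of Atp5k was not tested.

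Among 4 red blood cell markers, 1 was called in the authors' deposited table, where 1.97% of all genes were called lower: Hba-a1 was lower, at -1.18 on the log2 scale (Benjamini-Hochberg adjusted p = 5.04e-12). Hbb-bt at -1.01 and Hbb-bs at -0.94 in the authors' deposited table did not pass (Benjamini-Hochberg adjusted p = 0.246 and 0.154). The sum of the markers in the table over the CaKO libraries ranged from 867 to 1405 normalised counts. It was highest in replicate 3, the library in which Atp5k was lowest.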
